A study of Chlamydomonas reinhardtii with 12 samples.

Results

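The fatty acid, membrane and storage lipid genes of the green alga Chlamydomonas reinhardtii described here are the loci whose gene symbol in the authors' deposited table belongs to 1 of 19 families. The families are KAS, FAD, FAB, DES, DGTT, PDAT, MLD, LPAT, SQD, MGD, DGD, BCX, BCC, ACX, ACP, ENR, FAT, TGL and FAO, each followed by a number. Of 17744 loci 21 carried such a symbol, drawn from 11 of the families, and each is represented by its most abundant transcript. Of these 21, 20 reached 1 FPKM (fragments scaled to transcript length and library size) in at least 1 group and so count among the 10916 measured loci. SQD3 stayed at or below 0.077 FPKM and was tested in no comparison. The table gives a description for 16 of the 21. The MLD1/MLDP1, DGTT1, TGL21, FAO7 and FAO12 entries have a symbol alone.

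The study sequenced stranded poly(A) RNA from the wild type CC-124 and from amiCYG12, a transformant of the CC-124 background that carries an artificial microRNA against the guanylate cyclase gene CYG12. Standard cultures of each strain were shaken in TAP medium, an acetate medium, under continuous light (20 µmol photons, per square metre and second). Further cultures of each strain were then kept dark for 6 h, either aerated in open beakers or in sealed flasks that became anoxic. The 12 libraries form 6 groups of 2 biological replicates. The wild type is untransformed as far as the labels say, the labels name a single amiCYG12 line, and the sources used here do not give the promoter of its microRNA. Oxygen and light differ together between the sealed flasks and the standard cultures, along with the set-up and the 6 h of incubation. Their parts cannot be told apart in that comparison. The dark aerated cultures differ from the standard ones in light, in set-up (open beakers against shaken cultures) and in the 6 h of incubation. These cannot be told apart, and the dark with air below names that whole comparison. Between the dark aerated and the anoxic cultures the vessel and its sealing differ along with oxygen, and these cannot be told apart either. Loss of oxygen below names that whole comparison.

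In algae and plants most fatty acids are made in the chloroplast. Acetyl-CoA carboxylase, whose biotin is held by a carrier subunit, makes malonyl-CoA, and ketoacyl synthases then lengthen a chain that is tethered to acyl carrier protein. Desaturases introduce unsaturated bonds into the chain with molecular oxygen as a co-substrate. The finished acyl groups go into the galactolipids and the sulfolipid of the thylakoids, or into triacylglycerol that is stored in lipid droplets and released again by lipases.

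The deposited table holds 1 pooled FPKM value per group, so no spread between the replicates can be printed, and the depth of each library is unknown. FPKM values are given in the order standard, dark aerated, anoxia. A gene "rose", "fell" or was "higher" or "lower" where the authors' deposited table marks the comparison as significant, which it does at q-values of up to 0.0499. A log2 change is the log2 of the ratio of pooled FPKM values after 1 was added to each, which understates the change of genes near or below 1 FPKM. Bulk RNA does not tell less RNA per cell from fewer cells that carry it. CYG12 itself had 0.132, 3.23 and 2.46 FPKM in the wild type against 0.158, 0.353 and 0.429 in amiCYG12. The 2 strains thus differed in the targeted transcript in the dark samples, while it was near 0 in both standard groups.

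Of the 20 measured lipid genes 16 were called in at least 1 of the 9 comparisons, as were 57.2% of all measured loci. In the wild type, genes that start fatty acid synthesis fell in the dark with air, and 3 desaturase genes rose when oxygen was lost as well. In the dark aerated wild type 9 of 20 lipid genes tested were called against the standard culture, 2 higher and 7 lower, where 11.0% of all loci tested were called, 4.28% higher and 6.75% lower. Their median log2 change was -0.37, beside -0.05 over all measured loci. When the dark wild type cells also lost oxygen, 6 of 20 were called, 5 higher and 1 lower, against 14.8% of all loci, 6.88% higher and 7.95% lower. The median was 0.11, beside -0.01. For the wild type in anoxia against the standard culture 13 of 20 were called, 6 higher and 7 lower, against 27.4% of all loci, 11.5% higher and 15.9% lower. That median was 0.09 beside -0.07. These 3 comparisons share groups, as do those within amiCYG12 and those between the strains, and are therefore not independent of each other.

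In amiCYG12 fewer lipid genes were called in the dark with air and more on the loss of oxygen. In the dark aerated cells 1 of 18 genes tested was called, FAB2, which fell, against 13.9% of all loci, 4.13% higher and 9.78% lower. On the loss of oxygen 10 of 19 were called, 4 higher and 6 lower, against 25.8% of all loci, 12.9% in each direction. In anoxia against standard 11 of 19 were called, 4 higher and 7 lower, against 24.9% of all loci, 9.26% higher and 15.7% lower. The medians were -0.14, -0.25 and -0.46, beside -0.06, -0.02 and -0.08 over all measured loci. Counts of calls in the strains are not a test of their difference, which is given gene by gene further on.

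**Figure D1:**
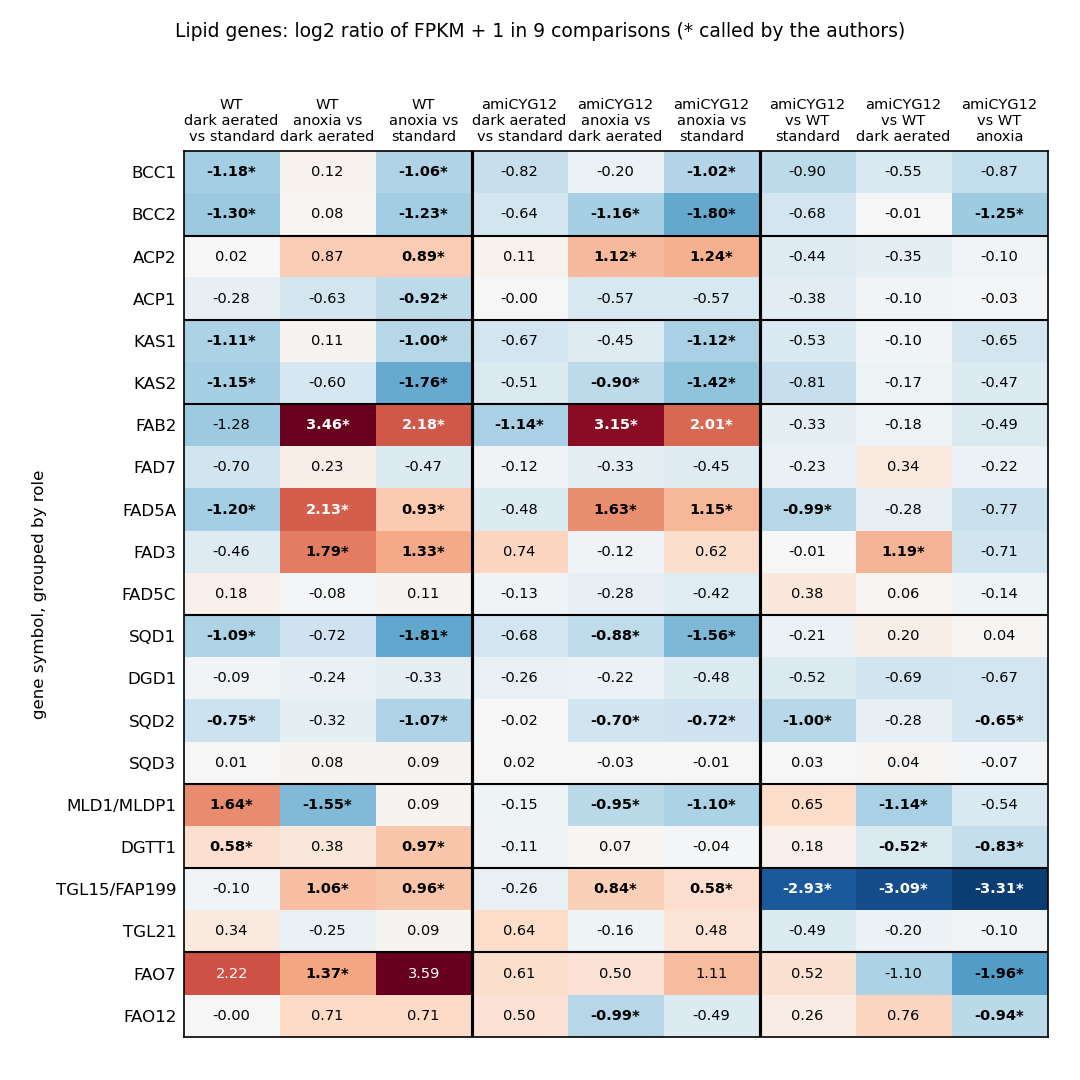
Log2 ratios of pooled FPKM plus 1 for the 21 lipid genes (rows, grouped by role with lines between roles) in 9 comparisons (columns). The first 3 columns are wild type incubations, the next 3 the same incubations in amiCYG12 and the last 3 amiCYG12 against wild type; a star and bold type mark the authors' calls, red is higher and blue lower. The BCC, KAS, SQD1 and SQD2 rows are below 0 in every column of dark or anoxia against standard, FAB2 reaches 3.46 on loss of oxygen, and TGL15/FAP199 lies at -2.93 to -3.31 in the 3 strain columns.

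The carrier subunits of acetyl-CoA carboxylase fell in the dark in the wild type. BCC1 (Cre17.g715250, chromosome 17, 2393896 to 2396901 of the authors' genome, version 5.5) was the more abundant and had 573, 253 and 274 FPKM in the wild type compared with 306, 173 and 149.8 in amiCYG12. Its level in the wild type was thus similar with and without air and lower than in the light. BCC1 of the wild type fell by 1.18 on the log2 scale in the dark with air and by 1.06 in anoxia against standard. In amiCYG12 it fell by 1.02 in anoxia against standard, and the change of -0.82 in the dark with air was not called. BCC2 (Cre01.g037850, chromosome 1, 5379991 to 5382868) had 261, 105 and 111 FPKM in the wild type against 163, 104 and 46.0 in amiCYG12. The wild type stayed at its dark level without oxygen, whereas amiCYG12 went lower again. Wild type BCC2 fell by 1.30 in the dark with air and by 1.23 in anoxia against standard. In amiCYG12 it fell by 1.16 on the loss of oxygen and by 1.80 against standard. The strains' levels were close in the dark with air (log2 -0.01), and in anoxia BCC2 was lower in amiCYG12 by a log2 of -1.25.

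Of the acyl carrier proteins, which hold the growing chain, ACP2 (Cre13.g577100, chromosome 13, 2042871 to 2044565) was the most abundant lipid transcript and stood at rank 74 of all measured loci by mean FPKM. It had 1829, 1856 and 3393 FPKM in the wild type compared with 1346, 1454 and 3170 in amiCYG12. Darkness with air left it near the standard level, and the anoxic samples of both strains held the most. Against standard, ACP2 rose in anoxia by a log2 of 0.89 in the wild type and by 1.24 in amiCYG12. On the loss of oxygen it rose by 1.12 in amiCYG12, and the wild type's 0.87 was not called (q = 0.0555 in the authors' deposited table). ACP2 alone made up 51.5% of the summed FPKM of the lipid genes in the standard wild type and 76.6% in anoxic amiCYG12. ACP1 (Cre16.g673109), described as mitochondrial, had 262, 215 and 138 FPKM in the wild type against 201, 200.7 and 135 in amiCYG12, and fell in the wild type in anoxia against standard by 0.92. That was its only call in 9 comparisons.

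The ketoacyl synthases, which condense the chain with malonyl units, also fell. KAS1 (Cre11.g467723, chromosome 11, 1404867 to 1415769), described in the table as a ketoacyl-CoA synthase, had 110.1, 50.5 and 54.5 FPKM in the wild type. In amiCYG12 it had 76.0, 47.2 and 34.4. In the wild type it fell by 1.11 in the dark with air and by 1.00 in anoxia against standard, and in amiCYG12 by 1.12 in anoxia against standard. KAS2 (Cre07.g335300, chromosome 7, 3431377 to 3438184), described as a ketoacyl-ACP synthase, had 46.4, 20.3 and 13.03 FPKM in the wild type compared with 26.0, 17.9 and 9.11 in amiCYG12. Both strains held the least KAS2 RNA in anoxia. In anoxia against standard it fell by 1.76 in the wild type and by 1.42 in amiCYG12. No strain comparison of either gene was called, and the nearest was KAS2 in the standard cultures, with a log2 of -0.81 and q = 0.0651 in the authors' deposited table.

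On the log2 scale with 1 added, desaturases held the largest called rises among the lipid genes. FAB2 (Cre17.g701700, chromosome 17, 781800 to 786028), the plastid acyl-ACP desaturase, puts the first unsaturated bond into the chain while it is still bound to acyl carrier protein. It had 98.0, 39.6 and 446 FPKM in the wild type against 77.9, 34.8 and 317 in amiCYG12. Both strains were lowest in the dark with air and highest in anoxia. On the loss of oxygen FAB2 rose by 3.46 in the wild type and by 3.15 in amiCYG12, which is 11.3 and 9.10 times the dark aerated level in the authors' deposited table. Against standard the rise was 2.18 and 2.01. The fall in the dark with air was called in amiCYG12 (log2 -1.14), while the wild type's -1.28 was not, q = 0.205 in the authors' deposited table. No strain comparison of FAB2 was called, with log2 values of -0.33, -0.18 and -0.49. A second FAB2 transcript with 8.34, 17.7 and 17.2 FPKM in the wild type compared with 2.70, 1.60 and 9.24 in amiCYG12 was called in none of its 9 tests.

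FAD5A (Cre09.g397250, chromosome 9, 1623842 to 1629056), a desaturase described as Delta-9, showed the same order of incubations. It had 93.2, 40.1 and 178 FPKM in the wild type against 46.4, 32.9 and 104 in amiCYG12. In the wild type it fell by 1.197 in the dark with air, rose on the loss of oxygen by 2.13, and ended above standard by 0.93. In amiCYG12 it rose on the loss of oxygen by 1.63 and ended above standard by 1.15. The standard cultures differed by strain, with FAD5A lower in amiCYG12 by a log2 of -0.99.

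FAD3 (Cre01.g037700, chromosome 1, 5368063 to 5373836), described as a linoleate desaturase, was the only desaturase whose response differed between the strains by the test given further on. It had 30.0, 21.6 and 76.8 FPKM in the wild type compared with 29.9, 50.6 and 46.6 in amiCYG12. The standard cultures were alike in value, amiCYG12 was above the wild type in the dark with air, and the wild type was above amiCYG12 in anoxia. The anoxic strain difference (log2 -0.71) was not called, q = 0.128 in the authors' deposited table. FAD3 of the wild type rose by 1.79 on the loss of oxygen and by 1.33 against standard. In amiCYG12 no incubation comparison was called (log2 0.74, -0.12 and 0.62). In the dark with air FAD3 was higher in amiCYG12 by 1.19, the only lipid gene called higher in amiCYG12 in any of the 3 strain comparisons.

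The remaining desaturases were called nowhere. FAD7 (Cre01.g038600), described as the chloroplast omega-3 desaturase of glycerolipids, had 139.7, 85.6 and 100.7 FPKM in the wild type against 119, 109 and 86.5 in amiCYG12. FAD5C (Cre04.g217939) stayed between 0.786 and 1.39 FPKM. Summed over the 5 desaturases of the symbol families, the level was 362, 188 and 803 FPKM in the wild type. In amiCYG12 it was 274, 228 and 555 FPKM, and FAB2 and FAD5A supplied most of the anoxic sums of both strains. These sums leave out Cre13.g590500, a chloroplast fatty acid desaturase outside the symbol families that is described under the other observations. That locus alone exceeded the sum in every group, with 592, 1162 and 2132 FPKM in the wild type against 371, 661 and 1204 in amiCYG12.

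**Figure D2:**
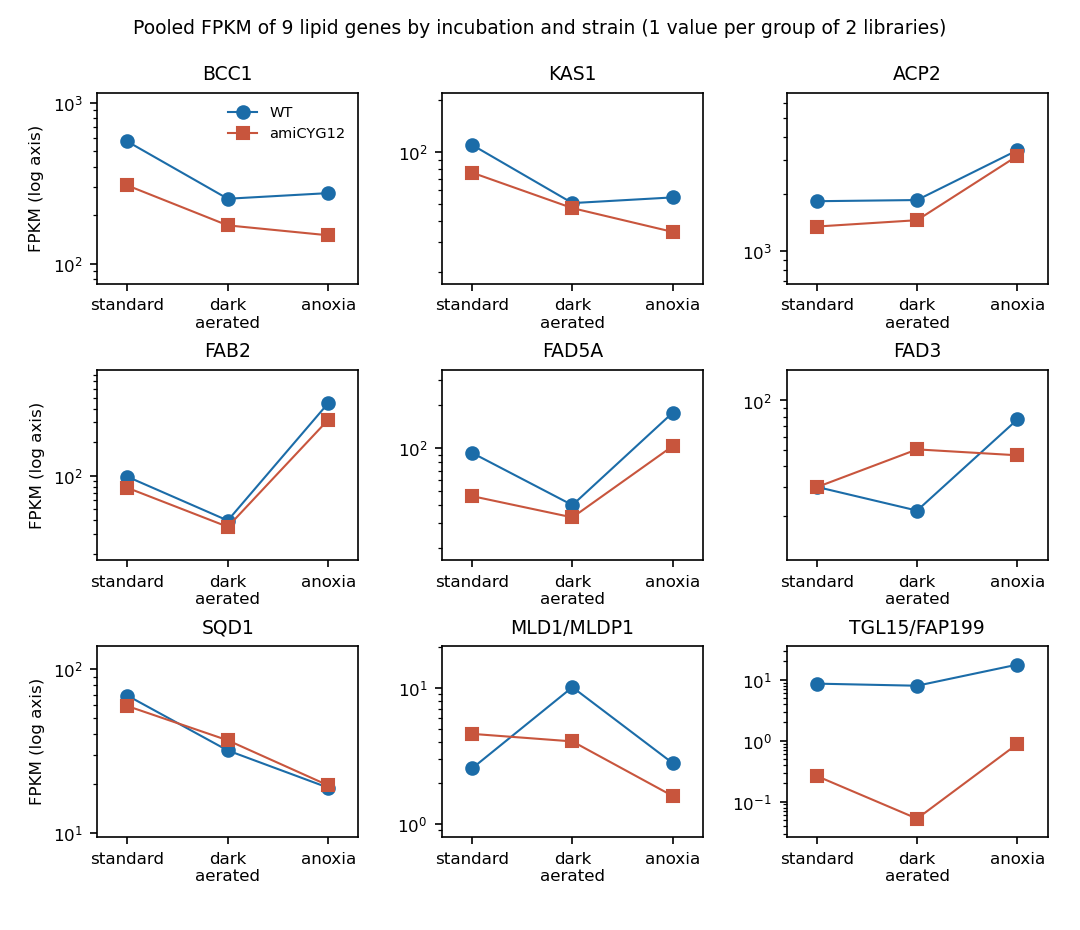
Pooled FPKM (log axis, 1 value per group of 2 libraries, no replicate error) of 9 lipid genes in the standard, dark aerated and anoxic incubations; blue circles are the wild type and red squares amiCYG12. FAB2 goes from 39.6 to 446 FPKM between the dark aerated and anoxic wild type, FAD3 and MLD1/MLDP1 cross between strains, and TGL15/FAP199 stays under 1 FPKM in amiCYG12.

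Genes for the sulfolipid, an anionic thylakoid lipid, fell in the dark wild type and in the anoxic cultures of both strains. SQD1 (Cre16.g656400, chromosome 16, 1959598 to 1965443), the UDP-sulfoquinovose synthase that makes the head group, had 69.0, 31.9 and 18.9 FPKM in the wild type against 59.6, 36.8 and 19.5 in amiCYG12. The strains were alike in order, with the least RNA in anoxia. In anoxia against standard it fell by 1.81 in the wild type and by 1.56 in amiCYG12. It also fell by 1.09 in the wild type in the dark with air and by 0.88 in amiCYG12 on the loss of oxygen, and was called in no strain comparison. SQD2 (Cre01.g038550, chromosome 1, 5471606 to 5479655), the sulfolipid synthase, had 6.90, 3.71 and 2.77 FPKM in the wild type compared with 2.95, 2.89 and 1.39 in amiCYG12. In anoxia against standard it fell by 1.07 in the wild type and by 0.72 in amiCYG12. SQD2 was lower in amiCYG12 in the standard culture by -1.00 and in anoxia by -0.65. DGD1 (Cre13.g583600), the galactosyltransferase that makes digalactosyl lipid, was called nowhere, with 14.9, 14.0 and 11.7 FPKM in the wild type against 10.1, 8.28 and 7.00 in amiCYG12.

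The lipid droplet protein and acyltransferase genes were low in level, and both rose in the dark aerated wild type. MLD1/MLDP1 (Cre09.g405500, chromosome 9, 6143460 to 6146395) encodes the major lipid droplet protein of this alga, which coats the triacylglycerol droplets. It had 2.56, 10.1 and 2.80 FPKM in the wild type compared with 4.60, 4.05 and 1.61 in amiCYG12. The dark aerated wild type stands above the other 5 groups. Within the wild type MLD1/MLDP1 rose by 1.64 in the dark with air and fell by 1.55 on the loss of oxygen, back to a level within a log2 of 0.09 of standard. In amiCYG12 the dark aerated change of -0.15 was not called, and the transcript fell by 1.104 in anoxia against standard and by 0.95 on the loss of oxygen. In the dark with air it was lower in amiCYG12 by a log2 of -1.14.

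DGTT1 (Cre12.g557750, chromosome 12, 7279129 to 7283104) encodes a diacylglycerol acyltransferase, the enzyme class that adds the last acyl group of triacylglycerol. It had 0.0664, 0.596 and 1.08 FPKM in the wild type against 0.209, 0.116 and 0.174 in amiCYG12. It counts as measured through the anoxic wild type alone. In the wild type it rose by 0.58 in the dark with air and by 0.97 in anoxia against standard. The authors' deposited table gives 16.3 times the standard level for the anoxic wild type, with a q of 0.0102. DGTT1 was lower in amiCYG12 in the dark with air and in anoxia, with deposited log2 values of -2.36 and -2.64 in the authors' deposited table, and it was not tested within amiCYG12 or between the standard cultures.

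Of the triacylglycerol lipases, TGL15/FAP199 (Cre09.g399400, chromosome 9, 1258513 to 1269209) held the largest strain difference of all lipid genes. It had 8.65, 7.99 and 17.8 FPKM in the wild type compared with 0.264, 0.0527 and 0.887 in amiCYG12. Every amiCYG12 group lay below every wild type group, and in both strains anoxia gave the highest value. TGL15/FAP199 was lower in amiCYG12 in all 3 incubations, with log2 values of -2.93, -3.09 and -3.31. In the authors' deposited table, without the added 1, these are -5.03, -7.24 and -4.32, each with a q of 0.000623. Wild type cells raised it on the loss of oxygen by 1.06 and against standard by 0.96. In amiCYG12 it rose from its low level by 0.84 and 0.58 in the same comparisons. It was the only lipid gene called lower in amiCYG12 in all 3 incubations, which 173 of the measured loci, or 1.58%, were. TGL21 (Cre17.g735600), known here by its symbol alone, had 3.16, 4.27 and 3.44 FPKM in the wild type against 1.96, 3.604 and 3.13 in amiCYG12 and was called nowhere.

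Loci near TGL15/FAP199 were looked at after its values were seen. Among the 50 loci on each side, 58 were measured over a span of 754 kb. Of these neighbours 4 were likewise called lower in amiCYG12 in all 3 incubations, and 17 were called in at least 1, as were 29.5% of all measured loci. The 4 are Cre09.g398500, Cre09.g398450, TRP5 and Cre09.g398250, which start 171, 174, 178 and 199 kb from the start of TGL15/FAP199. Cre09.g398450, the most abundant of them, had 134, 137 and 128 FPKM in the wild type compared with 20.02, 6.39 and 55.7 in amiCYG12, or 14.9%, 4.68% and 43.4% of the wild type level. For TGL15/FAP199 the same shares were 3.06%, 0.660% and 4.99%. At all 5 loci the share was lowest in the dark with air and highest in anoxia. That order held at 47 of the 173 loci called lower in all 3 incubations. The gene next to TGL15/FAP199, Cre09.g399350, also labelled FAP199 and starting 538 bases past its end, had 2.95, 3.88 and 2.75 FPKM in the wild type against 1.79, 2.66 and 1.47 in amiCYG12 and was not called between the strains.

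**Figure D3:**
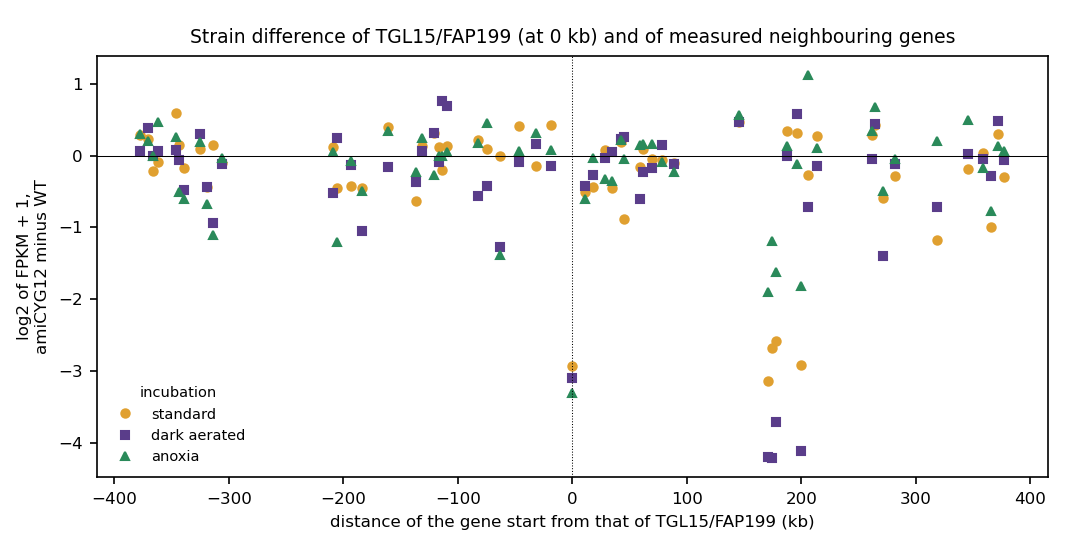
Log2 of FPKM plus 1, amiCYG12 minus wild type, for TGL15/FAP199 at 0 kb and its 58 measured neighbours, plotted by distance between gene starts in kb. Orange circles are standard, purple squares dark aerated and green triangles anoxic cultures; TGL15/FAP199 and 4 genes 171 to 199 kb away are below -1 in every incubation.

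The FAO symbols have no description in the table and no function is assigned to them here. FAO7 (Cre06.g310950, chromosome 6, 8876506 to 8884766) had 0.108, 4.18 and 12.4 FPKM in the wild type compared with 0.590, 1.42 and 2.43 in amiCYG12. Both strains were lowest in standard and highest in anoxia, with a wider range in the wild type. FAO7 rose on the loss of oxygen in the wild type by 1.37 and was lower in anoxic amiCYG12 by -1.96. The larger log2 of 3.59 for the wild type in anoxia against standard was not called, q = 0.375 in the authors' deposited table. The deposited span of FAO7 also covers its neighbour Cre06.g310900, and in the RefSeq annotation the genes share 14 bases. It lies on chromosome 6, where the median strain log2 of 1115 measured loci was 0.61, 0.63 and 0.57 in the 3 incubations, beside -0.08, -0.11 and -0.08 for the other 9801. The part of that shift in the FAO7 values was not tested. FAO12 (Cre16.g671450, chromosome 16, 4370839 to 4375634) had 0.618, 0.614 and 1.64 FPKM in the wild type against 0.934, 1.74 and 0.379 in amiCYG12. It fell in amiCYG12 on the loss of oxygen by 0.99 and was lower in anoxic amiCYG12 than in the anoxic wild type by -0.94.

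Between the strains, the lipid genes called in the standard and anoxic cultures were all lower in amiCYG12. For the dark with air the share of lipid genes called, 20%, was near that of all loci. In the standard cultures 3 of 19 tested were called, 0 higher and 3 lower, against 10.5% of all loci, 5.49% higher and 5.04% lower. In the dark with air 4 of 20 were called, 1 higher and 3 lower, against 19.0% of all loci, 8.20% higher and 10.8% lower. In anoxia 6 of 20 were called, 0 higher and 6 lower, against 14.9% of all loci, 5.73% higher and 9.13% lower. The 6 were BCC2, SQD2, DGTT1, TGL15/FAP199, FAO7 and FAO12. DGTT1 and TGL15/FAP199 reached 1 FPKM in wild type groups alone, so the filter itself favours their being lower in amiCYG12. With a minimum of 5 FPKM in at least 1 group, 4 were called in anoxia, 0 higher and 4 lower. The calls also repeat genes: TGL15/FAP199 was called in all 3 comparisons, SQD2 in standard and anoxia, and DGTT1 in both dark incubations. The medians over the 20 measured lipid genes were -0.41, -0.19 and -0.65, beside -0.04, -0.06 and -0.04 over all measured loci. In anoxia 19 of the 20 values were below 0, with SQD1 at 0.04 the exception. Those shares rest on single pooled values, and most of the single differences were not called. The summed FPKM of all 17744 loci, which abundant transcripts weigh most, was also lower in amiCYG12. It was 526243, 513019 and 517222 in amiCYG12 against 668496, 598569 and 634045 in the wild type. How far the lipid gene values share in that lower sum was not tested.

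The strains' responses were compared gene by gene. For each locus standard errors were computed from deposited log2 changes and their p-values. The error of a difference can be built from the within-strain comparisons or from the between-strain comparisons. Where both were available the smaller error was used, which favours calls. All errors, intervals and adjusted p-values given for these differences rest on that choice. The difference of the responses was set over its error, and p-values were adjusted over all loci by Benjamini-Hochberg. A recovered error is an upper bound where the deposited p-value is the smallest in the table, 5e-05. In the dark response (dark aerated against standard) 2.20% of 10353 loci differed between the strains at an adjusted p under 0.05. MLD1/MLDP1 was the only 1 of 18 lipid genes tested that did. Its log2 change in the authors' deposited table was 1.98 in the wild type and -0.18 in amiCYG12, a difference of -2.17 ± 0.60 (SE) with an adjusted p of 0.0249. In the response to the loss of oxygen 0.713% of 10525 loci differed, and 2 of 19 lipid genes did. FAD3 changed by 1.83 in the wild type and by -0.12 in amiCYG12, a difference of -1.95 ± 0.50 (SE) with an adjusted p of 0.0302. FAO12 reached 1 FPKM only in the anoxic wild type and in dark aerated amiCYG12, so it counts as measured through the groups where it is high. It changed by 1.42 and -2.20, a difference of -3.62 ± 0.95 (SE) with an adjusted p of 0.0336. In the combined response to dark anoxia 0.548% of 10581 loci differed and 0 of 19 lipid genes did. At an unadjusted p under 0.05 stood 2, 4 and 3 lipid genes in the 3 responses, beside 13.1%, 11.3% and 6.91% of all loci. With the larger of the 2 error estimates that each test allows, 0 lipid genes were called in any of the 3 responses.

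For the other lipid genes the differences of the responses were not called. For FAB2 on the loss of oxygen the difference was -0.31, with a 95% interval of -1.54 to 0.92. For FAD5A it was -0.49, with an interval of -1.47 to 0.49, and for ACP2 0.25, with an interval of -0.71 to 1.22. These intervals leave room for sizeable differences in either direction. BCC2 had a difference of -1.26 on the loss of oxygen, with an interval of -2.23 to -0.29 and an adjusted p of 0.234. TGL15/FAP199 had 2.92, with an interval of 0.71 to 5.13 and an adjusted p of 0.219.

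**Figure D4:**
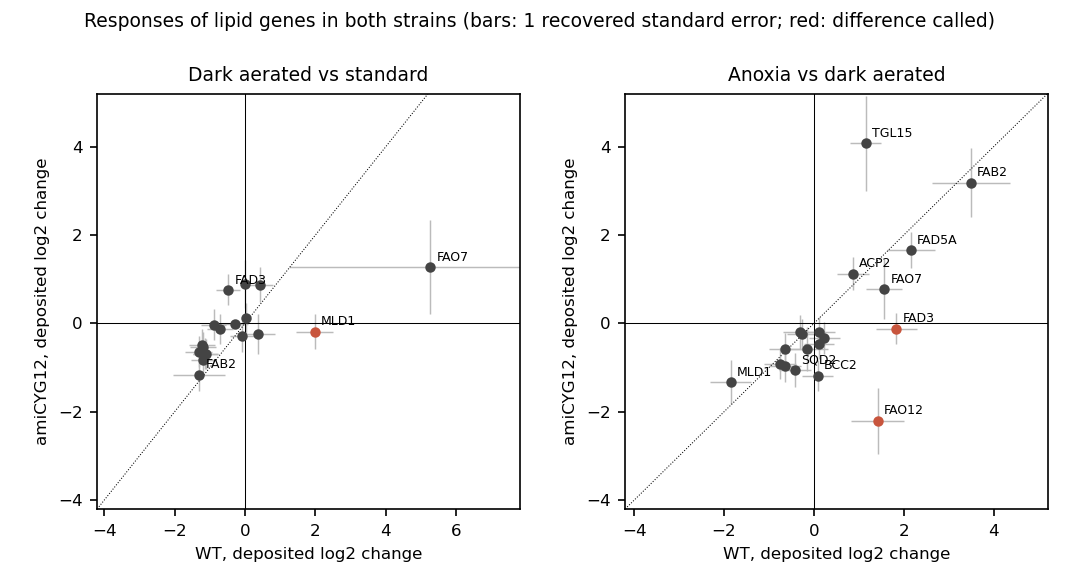
Deposited log2 changes of lipid genes in the wild type (horizontal) and amiCYG12 (vertical) for the dark aerated and the oxygen-loss response; bars are 1 standard error recovered from the deposited p-values (an upper bound at the smallest p-value), the dotted line marks equal responses, and bars of FAO7 and TGL15/FAP199 may run past the frame. Red points are the genes whose difference was called, MLD1/MLDP1 at 1.98 and -0.18, FAD3 at 1.83 and -0.12 and FAO12 at 1.42 and -2.20, and FAB2 lies near the line at 3.49 and 3.19.

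Several lipid genes are close together on chromosome 1. FAD3 and BCC2 are separated by 6154 bases and SQD2 and FAD7 by 135 bases, all within 116 kb. These neighbours did not share a pattern: in the anoxic wild type FAD3 rose against standard, BCC2 and SQD2 fell and FAD7 was not called.

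Lipid genes outside the symbol families were read from a list of 42 symbols. Of these 25 were found, at 26 loci, of which 7 were left out because their description names another function. Of the rest 18 were measured and are counted below. GPD3, at up to 0.604 FPKM, was not measured and is not counted. It was called higher on the loss of oxygen in the wild type (log2 0.49) and in amiCYG12 (0.37). In anoxia against standard it was also called higher in both strains, by 0.39 in each. Among wild type comparisons 0 of the 18 were higher and 4 lower in the dark with air, where 4.28% and 6.75% of all loci were. On the loss of oxygen 0 were higher and 4 lower, beside 6.88% and 7.95%, and in anoxia against standard 0 and 9, beside 11.5% and 15.9%. In amiCYG12 the counts were 0 and 1 in the dark with air, beside 4.13% and 9.78% of all loci. They were 0 and 9 on the loss of oxygen, beside 12.9% in each direction, and 1 and 11 in anoxia against standard, beside 9.26% and 15.7%. The medians in anoxia against standard were -0.81 in the wild type and -1.13 in amiCYG12, beside -0.07 and -0.08 over all measured loci. DLA2, the acetyltransferase of a pyruvate dehydrogenase complex that supplies acetyl-CoA, had 213, 79.3 and 85.4 FPKM in the wild type compared with 139.6, 89.1 and 29.9 in amiCYG12. Its anoxic level was lower in amiCYG12 by -1.49. BTA1, which makes the betaine lipid that takes the place of phosphatidylcholine in this alga, had 30.2, 22.7 and 6.34 FPKM in the wild type against 34.8, 21.6 and 4.95 in amiCYG12. It fell in anoxia against standard by 2.09 and 2.59. ATO1, an acetyl-CoA acyltransferase of fatty acid breakdown, had 81.4, 67.5 and 34.4 FPKM in the wild type compared with 74.7, 42.1 and 19.3 in amiCYG12, and fell in anoxia against standard by 1.22 and 1.90. ECH1, described as an enoyl-CoA hydratase or isomerase, was the only measured gene of the list that rose in any incubation comparison. It had 20.3, 17.1 and 18.3 FPKM in the wild type against 23.02, 36.8 and 50.3 in amiCYG12, and was higher in amiCYG12 by 1.07 in the dark with air and by 1.41 in anoxia.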

How the data were processed

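Per the submitters' processing notes, bases were called with CASAVA 1.8.2, reads aligned with Bowtie2 2.0.5 and TopHat2 2.0.6, handled with SAMtools 1.2 and quantified with Cufflinks 2.1.1. Per the file headers the table uses genome version 5.5. The authors deposited 1 FPKM value per transcript and group, pooled over 2 libraries, and for each of 9 comparisons a log2 change, a fold, a status, a p-value and a q-value with a yes or no. The sources used here do not say how reads shared by related genes were counted, which bears on the BCC, ACP and FAD pairs.

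Gene names are those of the table. Each locus was represented by its transcript of highest mean FPKM and counted as measured at 1 FPKM or more in at least 1 group. Log2 changes were recomputed with a pseudocount of 1, and calls are the authors'. Named genes were the members called in a comparison, up to 12 by absolute log2, and the most abundant member of each role. Members and lists were chosen with earlier results of these data known. Standard errors recovered from the deposited p-values served for the strain differences of responses, and the smaller of 2 error estimates was taken for each difference. The procedure was tested on simulated data with normal noise. For the dark, oxygen-loss and dark anoxia responses, 1, 4 and 1 of 50 simulated loci with a true log2 difference of 1 were called. At a true difference of 2 the counts were 11, 21 and 10 of 50. Without a true difference 2 of 9872, 5 of 10125 and 5 of 10148 were called. A difference that was not called thus does not show equal responses. The simulation gave each locus the same error in every group. Recovered errors differed between comparisons, as for FAB2 in the dark response with 0.744 in the wild type and 0.360 in amiCYG12. The simulated counts therefore cannot show how often the choice of the smaller error gave false calls in the data. Alternatives varied the q and log2 thresholds, pseudocount, minimum, transcript choice and scaling. The planned model on values per library could not be run on pooled values. Python 3.11.15, pandas 2.3.3 and SciPy 1.17.1 were used.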

Additional observations from a re-analysis of the deposited data

Results flagged for a closer look

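The strains' responses differed for 3 lipid genes by the test of the difference itself, 1 of 18 in the dark response and 2 of 19 on the loss of oxygen, where 2.20% and 0.713% of all loci differed. That test used the smaller of 2 error estimates, and with the larger none of the 3 was called. For MLD1/MLDP1, the lipid droplet protein gene, the dark response in amiCYG12 minus that in the wild type was -2.17 on the log2 scale. For FAD3, a desaturase gene, the difference in the response to the loss of oxygen was -1.95. For FAO12 the difference in the same response was -3.62, at levels of 0.379 to 1.74 FPKM. FAO12 counts as measured only through the anoxic wild type and dark aerated amiCYG12, the groups whose height makes that difference. The filter itself thus favours its place in the count.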

How the results depend on the processing

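Counts of lipid genes called depended on the threshold. At a q under 0.01 the counts went from 9 to 5 for the dark aerated wild type, from 13 to 6 for the wild type in anoxia against standard, and from 10 to 4 for amiCYG12 on the loss of oxygen. With an absolute log2 of at least 1.5 asked for besides the call, those 3 counts were 2, 4 and 4. With the same limit amiCYG12 went from 1 to 0 in the dark with air and from 11 to 6 in anoxia against standard, and the strain comparison from 3 to 1 in standard and from 4 to 2 in the dark with air. With the larger error estimate the strain differences went from 1 to 0 in the dark response and from 2 to 0 on the loss of oxygen. The other 69 counts under an alternative stayed within 1.5 times the count reported. Of 45 medians under another pseudocount, scaling, minimum or transcript choice 5 moved by 0.1 or more on the log2 scale and 0 changed sign. The median ratio over all loci lay at -0.11 in the anoxic wild type and at -0.10 in amiCYG12 in the dark with air and in anoxia, each against standard. Setting it to 0 raised the log2 values by up to that much, and by less for genes of low FPKM because of the added 1. The median of the lipid genes in the anoxic wild type went from 0.09 to 0.16. That comparison then had 7 higher and 6 lower in place of 6 and 7, which are no longer the authors' deposited calls. No paired analysis was possible because the table holds 1 pooled value per group, and for the same reason no replicate could be left out. Depth is unknown, so genes near 1 FPKM carry an error that cannot be stated.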

Other observations

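Desaturases outside the symbol families were searched by description, after the values of the lipid genes were seen. Of 8 such loci 2 rose in both strains on the loss of oxygen and against standard, which 2.51% of all measured loci did. The fatty acid desaturases Cre04.g217945 and Cre06.g278109 were called in no incubation comparison. Between the strains Cre06.g278109, a locus of chromosome 6, was higher in anoxic amiCYG12 by a log2 of 0.93. The sterol gene CYP51G1 had 19.4, 16.9 and 62.7 FPKM in the wild type against 22.3, 17.6 and 68.1 in amiCYG12. Its log2 change on the loss of oxygen was 1.83 and 1.89. Cre11.g467527, a CYP710 family desaturase of sterols, had 28.5, 24.6 and 129 FPKM in the wild type compared with 27.4, 17.9 and 88.2 in amiCYG12. Its changes on the loss of oxygen were 2.35 and 2.24. The sterol desaturase Cre06.g261200 was called in neither strain on the loss of oxygen or in anoxia against standard. Its changes on the loss of oxygen were 0.29 in the wild type and -0.66 in amiCYG12. It fell in the dark aerated wild type (log2 -0.74). In the dark with air it was higher in amiCYG12 by 1.23, and it lies on chromosome 6, whose strain shift is given above. As background, CYP51 enzymes use molecular oxygen, as fatty acid desaturases do.

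The most abundant of the 8 was Cre13.g590500, a chloroplast desaturase described as omega-6, with 592, 1162 and 2132 FPKM in the wild type against 371, 661 and 1204 in amiCYG12. It rose in anoxia against standard by 1.85 in the wild type and by 1.69 in amiCYG12. In the wild type it also rose in the dark with air by 0.97, where FAD5A fell. The carotenoid desaturase genes PDS1 and ZDS1 were called in no incubation comparison, and ZDS1 was lower in anoxic amiCYG12 by a log2 of -0.90.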
